A study of Mus musculus with 7 samples.

Results

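The miR-23/27/24 clusters are a pair of mouse loci that each encode a miR-23, a miR-27 and a miR-24 hairpin. The members are 9 mature arms, taken by name from a table of miRNA counts: mmu-miR-23a-3p, mmu-miR-23b-3p, mmu-miR-27a-5p, mmu-miR-27a-3p, mmu-miR-27b-5p, mmu-miR-27b-3p, mmu-miR-24-3p, mmu-miR-24-1-5p and mmu-miR-24-2-5p, written below without the species prefix. They fill 10 of the 1078 rows of that table and 9 of its 950 miRNA names once each mature sequence is counted once. Of these 9, 7 were among the 337 miRNAs compared between libraries, which averaged at least 10 counts per 1000000 (CPM) over the 6 Ago2 libraries, and miR-27b-5p and miR-24-1-5p were below that minimum. The miR-23a-5p and miR-23b-5p rows are the other arms of the same miR-23 hairpins and are used here as their partners.

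Flag-tagged Ago2 was pulled down by an anti-Flag antibody from Ago-null mouse embryonic stem cells, and its small RNAs were sequenced on an Illumina HiSeq from NEBNext libraries. The 5 mutant libraries carry Ago2 K566A, Q548A, R792A_C793A, GKT_GKGT or PGKTP_AAAAA, the WT library carries wild-type Ago2, and the empty library is the control. All cells share the Ago-null background, so the tagged protein replaces the cells' own Argonautes. The sources used here do not give the promoter that drives the tagged protein, its level or whether a line is 1 clone. The series asks whether Argonaute itself selects which strand of a small RNA duplex is kept. Each group is 1 library, so every comparison is of 2 libraries, no spread between replicates can be estimated and no p-value is given.

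Each hairpin is cut to a duplex of a 5p and a 3p arm, and Argonaute keeps 1 arm as the guide while the other is discarded. The MID domain of Argonaute holds the 5′ end of the guide: basic residues grip its phosphate, and a loop next to the first base favours U or A there. The names GKT_GKGT and PGKTP_AAAAA refer to motifs of that loop. The guide then finds messenger RNAs through its seed. The miR-23, miR-27 and miR-24 hairpins of a cluster are made from 1 primary transcript. miR-27 restrains fat cell formation through Pparg, and miR-24 represses the cell cycle genes MYC and E2F2 in human cells.

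RefSeq (GRCm38.p6) holds a mature sequence for 8 of the 9 members, shown here because the results are grouped by seed family and by first base. The seed, bases 2 to 8, is in capitals. The members miR-23a-3p and miR-27a-3p differ in the seed by U7G and in the first base by A1U, counted from 1 at the 5′ end of miR-23a-3p.
miR-23a-3p: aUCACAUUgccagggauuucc
miR-27a-3p: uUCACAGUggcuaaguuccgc
miR-27b-3p: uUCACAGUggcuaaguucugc
miR-27a-5p: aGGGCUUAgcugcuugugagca
miR-27b-5p: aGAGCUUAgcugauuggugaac
miR-24-3p: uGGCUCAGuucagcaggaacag
miR-24-2-5p: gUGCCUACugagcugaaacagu
miR-24-1-5p: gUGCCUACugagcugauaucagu
The partner arms of the miR-23 hairpins both begin with G.
miR-23a-5p: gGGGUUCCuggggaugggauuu
miR-23b-5p: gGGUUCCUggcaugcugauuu
miR-27a-3p and miR-27b-3p share a seed and differ by C19U alone. miR-24-2-5p and miR-24-1-5p also share a seed and are the same over their first 16 bases. miR-27a-5p and miR-27b-5p differ inside the seed by G3A. The first base is U in 3 members (miR-27a-3p, miR-27b-3p and miR-24-3p), A in 3 (miR-23a-3p, miR-27a-5p and miR-27b-5p) and G in 2 (miR-24-2-5p and miR-24-1-5p).

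The miR-24 hairpins show how 1 guide strand comes from both clusters. In each, the capitals mark the 5p arm and then the 3p arm, and the 3p arm is the same sequence in both.
Mir24-2: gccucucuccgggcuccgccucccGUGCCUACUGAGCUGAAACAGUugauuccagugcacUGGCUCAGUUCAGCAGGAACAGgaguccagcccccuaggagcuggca
Mir24-1: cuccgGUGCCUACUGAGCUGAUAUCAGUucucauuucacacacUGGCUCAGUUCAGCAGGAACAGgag
On mm9, the build of the table's coordinates, the arms of miR-23a, miR-27a and miR-24-2 lie at chr8:86732426-86732795, a span of 370 bases. The arms of miR-23b, miR-27b and miR-24-1 lie at chr13:63401800-63402580, a span of 781 bases. In the GENCODE annotation of GRCm38, Mir23a and Mir27a lie on the plus strand between annotated genes, and the end of Mir24-2 overlaps 2 bases of an exon of the lincRNA gene Gm26532. Mir23b lies in an intron of the protein-coding gene 2010111I01Rik, and Mir27b and Mir24-1 overlap an exon of it, all on its strand. All 3 also lie within introns of Fancc on the opposite strand.

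The Ago2 libraries held between 14914043 counts (K566A) and 94842497 counts (WT), and the empty library held 33461. Where no read was counted, up to 3 counts remain possible, equal to 0.201 CPM in K566A, 0.0316 CPM in WT and 89.7 CPM in the empty library. The reads have no molecular identifiers, so these limits and all intervals cover counting error alone. The K566A library stood apart: the stem cell miRNA miR-292-5p took 21.7% of its counts, against 57.3% to 70.5% in the other mutants and 63.7% in WT. All 19 listed stem cell arms (miR-290 to miR-295, miR-302 and miR-367) were detected in each Ago2 library. They summed to 59.7% of counts in K566A, 73.3% to 80.0% in the other mutants and 77.8% in WT. By the fold rule given below, 7 of the 16 stem cell arms compared were called higher in K566A than in WT and 4 lower. The lower sum in K566A was thus not shared by all of these arms. The 13 fibroblast and mesenchyme miRNAs summed to 9214 CPM in K566A, 1375 to 2986 CPM in the other mutants and 2050 CPM in WT, with 1 of the 13 at 0 in K566A and 1 in GKT_GKGT. The 2 endothelial arms of miR-126 summed to 1466 CPM in K566A, 182 to 357 CPM in the other mutants and 171 CPM in WT. The 3 blood miRNAs in the table summed to between 5.24 and 39.0 CPM in the mutants and to 8.64 CPM in WT, with 1 of the 3 at 0 in each Ago2 library except PGKTP_AAAAA, where 2 were. The 2 muscle miRNAs in the table summed to at most 2.08 CPM in any Ago2 library. A bulk pulldown cannot tell fewer cells of a type from less RNA per cell, or either from a difference in which RNAs Ago2 holds. The part of these markers in the K566A results was not tested.

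In WT, miR-24-3p was the most abundant member at 1936 CPM, rank 35 of the 950 miRNAs. miR-27b-3p followed at 518 CPM (rank 65) and miR-27a-3p at 476 CPM (rank 70). The next levels were 50.6 CPM for miR-24-2-5p, 37.0 CPM for miR-23a-3p, 22.6 CPM for miR-23b-3p and 10.5 CPM for miR-27a-5p. The lowest were miR-27b-5p at 5.96 CPM and miR-24-1-5p at 2.79 CPM. No exact Poisson 95% interval of a member overlapped that of its neighbour in this order. Mature arms of 21 to 23 bases need no length correction, but how well each sequence enters a library was not measured, so the order is of counts. Summed, the members took 0.592% of counts in K566A, 0.152% to 0.395% in the other mutants and 0.306% in WT.

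**Figure D1:**
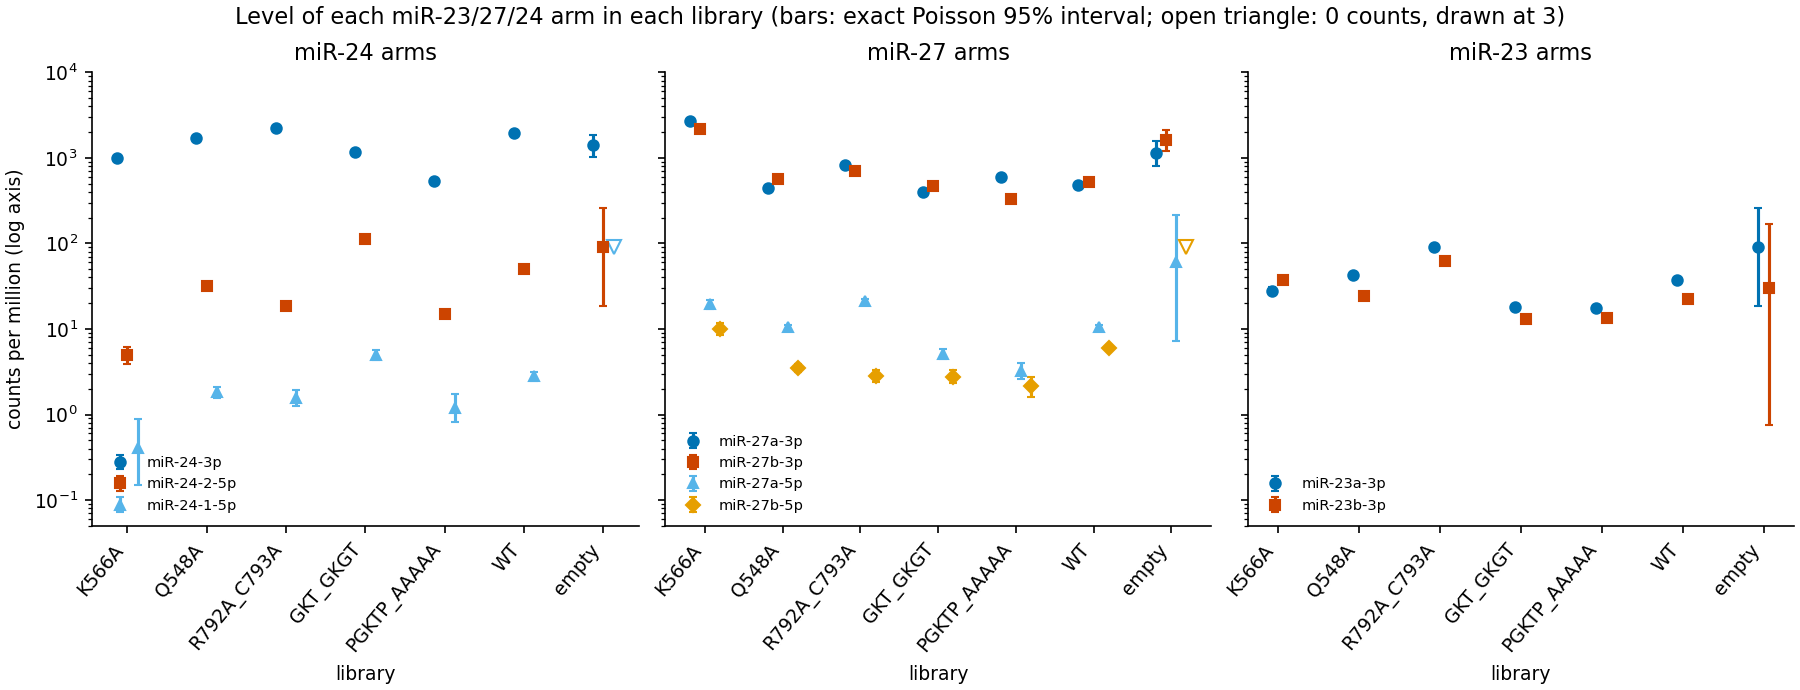
Level of each member (y axis, CPM, log scale) in each of the 7 libraries (x axis), with exact Poisson 95% intervals and with arms at 0 counts drawn as open triangles at the limit of 3 counts. miR-24-3p lies above the miR-27 arms in Q548A, R792A_C793A, GKT_GKGT and WT, and below 1 or both of them in K566A, in PGKTP_AAAAA and in the empty library.

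The guide strand of miR-27 was higher in the K566A library than in any other Ago2 library. miR-27a-3p stood at 2658 CPM in K566A, 815 in R792A_C793A, 445 in Q548A, 400 in GKT_GKGT, 589 in PGKTP_AAAAA and 476 in WT. miR-27b-3p stood at 2175 CPM in K566A, 692 in R792A_C793A, 569 in Q548A, 463 in GKT_GKGT, 333 in PGKTP_AAAAA and 518 in WT. In K566A the ratio to WT was 5.59 for miR-27a-3p (exact conditional 95% interval 5.51 to 5.67) and 4.20 for miR-27b-3p (4.14 to 4.26). In log2 these are 2.48 and 2.07, or 1.57 and 1.15 above the median of all compared miRNAs. Other scalings lower both values: miR-27a-3p was at 1.64 with median-of-ratios scaling and 1.37 without miR-292-5p in the library size, and miR-27b-3p at 1.23 and 0.96. In the other 4 mutants, miR-27a-3p lay between -0.25 and 0.78 and miR-27b-3p between -0.64 and 0.42 in log2 ratio to WT.

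The level of miR-24-3p did not follow that of miR-27 across the libraries. miR-24-3p stood at 987 CPM in K566A, 2243 in R792A_C793A, 1693 in Q548A, 1170 in GKT_GKGT, 542 in PGKTP_AAAAA and 1936 in WT. In CPM it was lowest in the PGKTP_AAAAA library, at 0.280 of WT (0.275 to 0.285), or -1.84 in log2 and -1.29 relative to the median of all compared miRNAs. In K566A it was at 0.510 of WT (0.502 to 0.519), -0.97 in log2 and -1.89 relative to that median. Under both other scalings K566A was the lower of the 2, at -1.81 against -1.21 in PGKTP_AAAAA with median-of-ratios scaling and -2.08 against -1.58 without miR-292-5p in the library size. Only R792A_C793A had a higher level than WT, by 0.21 in log2, and this sign turned under both other scalings (-0.15 with median-of-ratios scaling and -0.02 without miR-292-5p).

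The count of miR-27-3p (miR-27a-3p and miR-27b-3p) over that of miR-24-3p is a ratio within a library, from which library size cancels. It was chosen after the values were seen. The ratio was 4.89 in K566A (exact 95% interval 4.81 to 4.98), 0.672 in R792A_C793A, 0.599 in Q548A, 0.738 in GKT_GKGT, 1.70 in PGKTP_AAAAA (1.66 to 1.74) and 0.513 in WT (0.509 to 0.517). miR-27 thus outnumbered miR-24 in K566A and PGKTP_AAAAA, while miR-24 outnumbered miR-27 in the other 3 mutants and WT. The log2 change to WT was 3.25 in K566A (3.23 to 3.28), 1.73 in PGKTP_AAAAA (1.70 to 1.76), 0.52 in GKT_GKGT, 0.39 in R792A_C793A and 0.22 in Q548A. With Q548A in the place of WT, the change in K566A was 3.03 (3.0 to 3.06) and that in PGKTP_AAAAA 1.5 (1.47 to 1.54). Over the 6 Ago2 libraries the order of this ratio was the exact reverse of the order of total counts, from K566A with the fewest to WT with the most, and the part of depth in it was not tested. In the empty library, with 92 miR-27 and 47 miR-24 counts, the ratio was 1.96 (1.36 to 2.84).

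**Figure D2:**
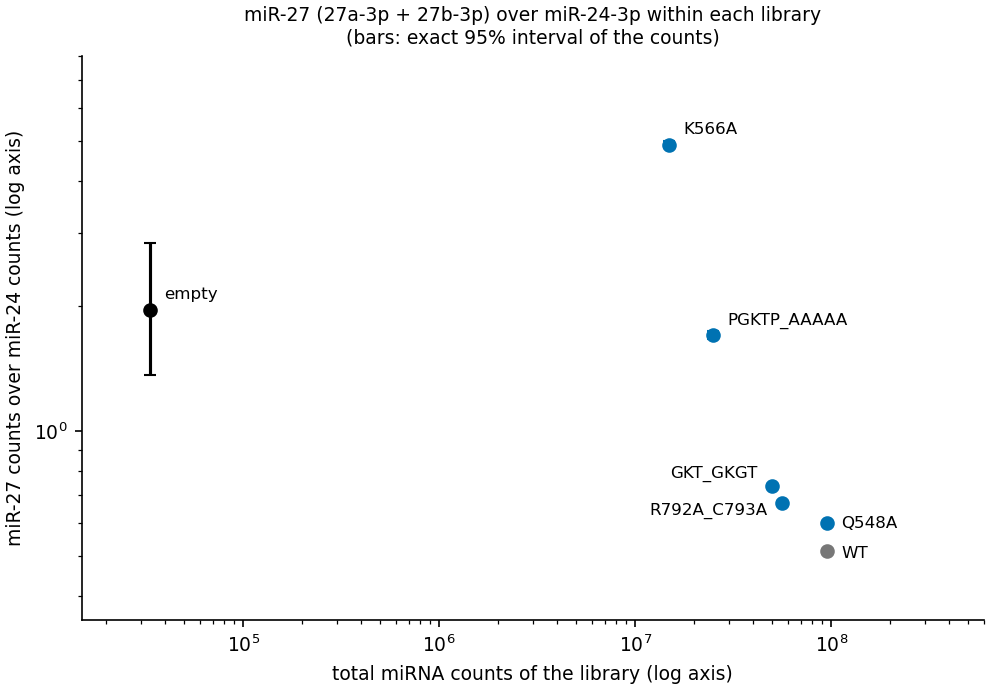
Count of miR-27-3p over count of miR-24-3p (y axis, log scale) against the total count of each library (x axis, log scale), 1 point per library with its exact 95% interval. K566A at 4.89 and PGKTP_AAAAA at 1.70 stand above the other Ago2 libraries, which lie between 0.513 and 0.738, and the ratio falls as the total count of the Ago2 libraries goes up.

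The 5p arms of miR-24, the strands usually discarded, were lowest in K566A and highest in GKT_GKGT. miR-24-2-5p stood at 4.96 CPM in K566A, 18.6 in R792A_C793A, 31.5 in Q548A, 113 in GKT_GKGT, 15.0 in PGKTP_AAAAA and 50.6 in WT. Its ratio to WT was 0.0980 in K566A (0.0768 to 0.123, from 74 and 4801 counts) and 2.24 in GKT_GKGT (2.15 to 2.32). GKT_GKGT was thus the only Ago2 library with more of this arm than WT, and K566A had the least. miR-24-1-5p, from the other cluster, was at 0.402 CPM in K566A (6 counts), 4.95 CPM in GKT_GKGT and 2.79 CPM in WT, and between 1.20 and 1.83 CPM in the other 3 mutants.

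The 3p arms of miR-23 were higher in CPM in the R792A_C793A library than in any other Ago2 library. miR-23a-3p stood at 27.9 CPM in K566A, 90.0 in R792A_C793A, 42.8 in Q548A, 18.0 in GKT_GKGT, 17.6 in PGKTP_AAAAA and 37.0 in WT. miR-23b-3p stood at 37.5 CPM in K566A, 62.3 in R792A_C793A, 24.4 in Q548A, 13.2 in GKT_GKGT, 13.3 in PGKTP_AAAAA and 22.6 in WT. In R792A_C793A the ratio to WT was 2.43 for miR-23a-3p (2.33 to 2.54) and 2.76 for miR-23b-3p (2.61 to 2.91). In CPM both were lowest in the loop mutants GKT_GKGT and PGKTP_AAAAA, where the ratios to WT were 0.487 and 0.476 for miR-23a-3p and 0.586 and 0.590 for miR-23b-3p. For miR-23a-3p the other scalings put K566A lower, at -1.25 in log2 with median-of-ratios scaling and -1.52 without miR-292-5p, against -0.86 and -0.74 in GKT_GKGT and -0.44 and -0.82 in PGKTP_AAAAA. In K566A, miR-23b-3p was 0.73 above WT in log2, but under median-of-ratios scaling it was at -0.10. The miR-27 5p arms stayed low in all 6 Ago2 libraries, at 3.25 to 21.0 CPM for miR-27a-5p and 2.13 to 9.99 CPM for miR-27b-5p.

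A miRNA is called higher or lower here where the exact 95% interval of its CPM ratio lies wholly above 2 or below 0.5. In K566A, 2 of the 7 members compared were called higher (miR-27a-3p and miR-27b-3p), where 47.5% of all compared miRNAs were, and 1 was called lower (miR-24-2-5p), where 19.6% were. In Q548A, 0 members were called in either direction, against 1.78% of all compared miRNAs called higher and 4.45% called lower. In R792A_C793A, 2 members were called higher (miR-23a-3p and miR-23b-3p), against 15.7% of all, and 1 lower (miR-24-2-5p), against 6.82%. In GKT_GKGT, 1 member was called higher (miR-24-2-5p), against 11.0% of all, and 0 lower, against 11.9%. In PGKTP_AAAAA, 0 were called higher, against 7.12% of all, and 3 lower (miR-24-3p, miR-24-2-5p and miR-27a-5p), against 33.5%. Other scalings end the call of miR-27b-3p in K566A (log2 ratio 0.96 without miR-292-5p), of miR-23a-3p in R792A_C793A (0.92 with median-of-ratios scaling) and of miR-24-2-5p (-1.12) and miR-27a-5p (-1.07) in PGKTP_AAAAA. They add calls of lower for miR-24-3p (-1.81) and miR-23a-3p (-1.25) in K566A. With counts summed over loci, 2 members were called lower in K566A, where 72 of 344 compared miRNAs were. By point estimate alone, 2 members were called lower in GKT_GKGT, where 49 of 337 compared miRNAs were. miR-27b-5p and miR-24-1-5p are outside these counts.

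The members' median log2 ratio to WT was 0.73 in K566A beside 0.91 for all compared miRNAs, 0.01 beside 0.07 in Q548A and 0.78 beside 0.43 in R792A_C793A. It was -0.73 beside -0.29 in GKT_GKGT and -1.07 beside -0.55 in PGKTP_AAAAA. Under median-of-ratios scaling each log2 ratio shifts by -0.84 in K566A, -0.36 in R792A_C793A, -0.10 in Q548A, 0.18 in GKT_GKGT and 0.63 in PGKTP_AAAAA. Differences between members within a library are the same under each scaling.

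**Figure D3:**
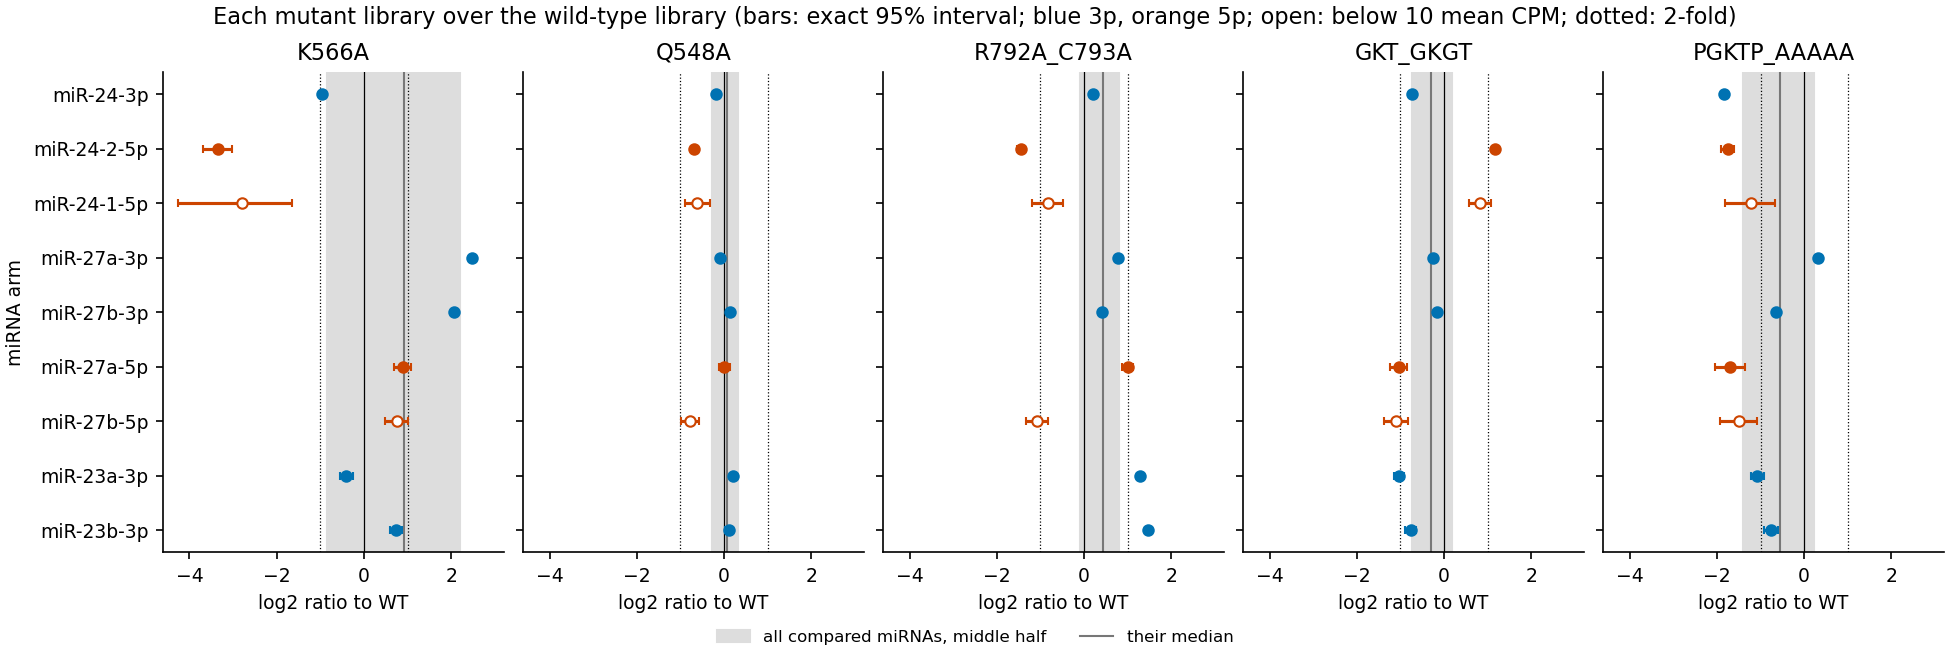
Log2 ratio of each mutant library to WT (x axis) for the 9 members (y axis) with exact 95% intervals, open points for the 2 members below 10 mean CPM, and the middle 50% and median of all 337 compared miRNAs in grey. In K566A the miR-27 3p arms lie right of 2 and miR-24-2-5p at -3.35. Small ratios change sign with the scaling: miR-23b-3p and miR-27b-5p in K566A, miR-27a-5p in K566A and Q548A, miR-24-3p in R792A_C793A, and miR-27a-3p and miR-27b-3p in GKT_GKGT.

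Arm choice was next compared as the share of the 5p arm in both arms of a hairpin, from which library size also cancels. In WT the 5p arm was the minor one in all 6 hairpins, with 15.8% for miR-23a, 44.0% for miR-23b, 2.55% for miR-24-2, 2.16% for miR-27a, 1.14% for miR-27b and 0.144% for miR-24-1. miR-24-3p is the same sequence at both loci, and its rows held 183622 and 183621 counts in WT. The higher row is used for both hairpins, so the miR-24-1 and miR-24-2 shares have the same denominator arm and are not separate measurements of it.

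In K566A the 5p arm of all 6 hairpins had a lower share than in WT. The share of miR-23a-5p was 1.42% in K566A (Wilson 95% interval 0.653 to 3.07) and 15.8% in WT (14.8 to 17.0). That of miR-23b-5p was 19.5% in K566A and 44.0% in WT. That of miR-24-2-5p was 0.50% in K566A and 2.55% in WT. The 5p strands begin with G in 4 hairpins and with A in the 2 miR-27 hairpins. The changes in log2 odds of 5p over 3p (pseudocount 0.5 on each arm) were -3.59 for miR-23a, -2.37 for miR-24-2, -1.71 for miR-24-1, -1.69 for miR-23b, -1.59 for miR-27a and -1.32 for miR-27b. With a pseudocount of 5, those of miR-23a and miR-24-1, which rest on few 5p counts, were -2.86 and -0.98. By the same 2-fold rule applied to the odds, 5 of the 6 were called lower, where 17.3% of 444 hairpins were called lower in the minor arm, and 0 were called higher, where 21.4% were. miR-24-1, with 6 counts of its 5p arm in K566A, was not called.

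GKT_GKGT divided the hairpins. The miR-24-2-5p share was 8.82% in GKT_GKGT (8.61 to 9.05) and 2.55% in WT (2.48 to 2.62). The miR-24-1-5p share was 0.422% in GKT_GKGT and 0.144% in WT. For miR-23a the 5p share was 26.8% in GKT_GKGT and 15.8% in WT. For miR-23b it was 59.3% in GKT_GKGT (56.9 to 61.6) and 44.0% in WT (42.5 to 45.6), so GKT_GKGT was the only Ago2 library in which the G-first miR-23b-5p outnumbered miR-23b-3p. The 5p arms of miR-27, which begin with A, had a lower share, with 1.26% in GKT_GKGT against 2.16% in WT for miR-27a and 0.596% in GKT_GKGT against 1.14% in WT for miR-27b. The 4 G-first 5p arms thus had higher shares than in WT (log2 odds 0.89 to 1.89) and the 2 A-first 5p arms lower ones (-0.79 and -0.94). Of the 6, miR-24-1 and miR-24-2 were called higher, where 16.4% of hairpins were, and 0 lower, where 11.9% were.

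In the other 3 mutants, between 0 and 2 of the 6 hairpins were called, each of them lower in the 5p arm. In PGKTP_AAAAA the miR-23b-5p share was 18.0% against 44.0% in WT, and the miR-27a-5p share 0.549% against 2.16% in WT. These 2 hairpins were called lower, where 16.9% of all hairpins were, and 0 were called higher, where 6.76% were. In R792A_C793A, miR-24-2 (0.823% against 2.55% in WT) and miR-27b (0.406% against 1.14% in WT) were called lower, where 11.0% of all hairpins were, and 0 higher, where 7.43% were. In Q548A, 0 of the 6 were called in either direction, where 3.38% of all hairpins were called higher and 4.95% lower, and the log2 odds changes ran from -0.91 to 0.10.

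**Figure D4:**
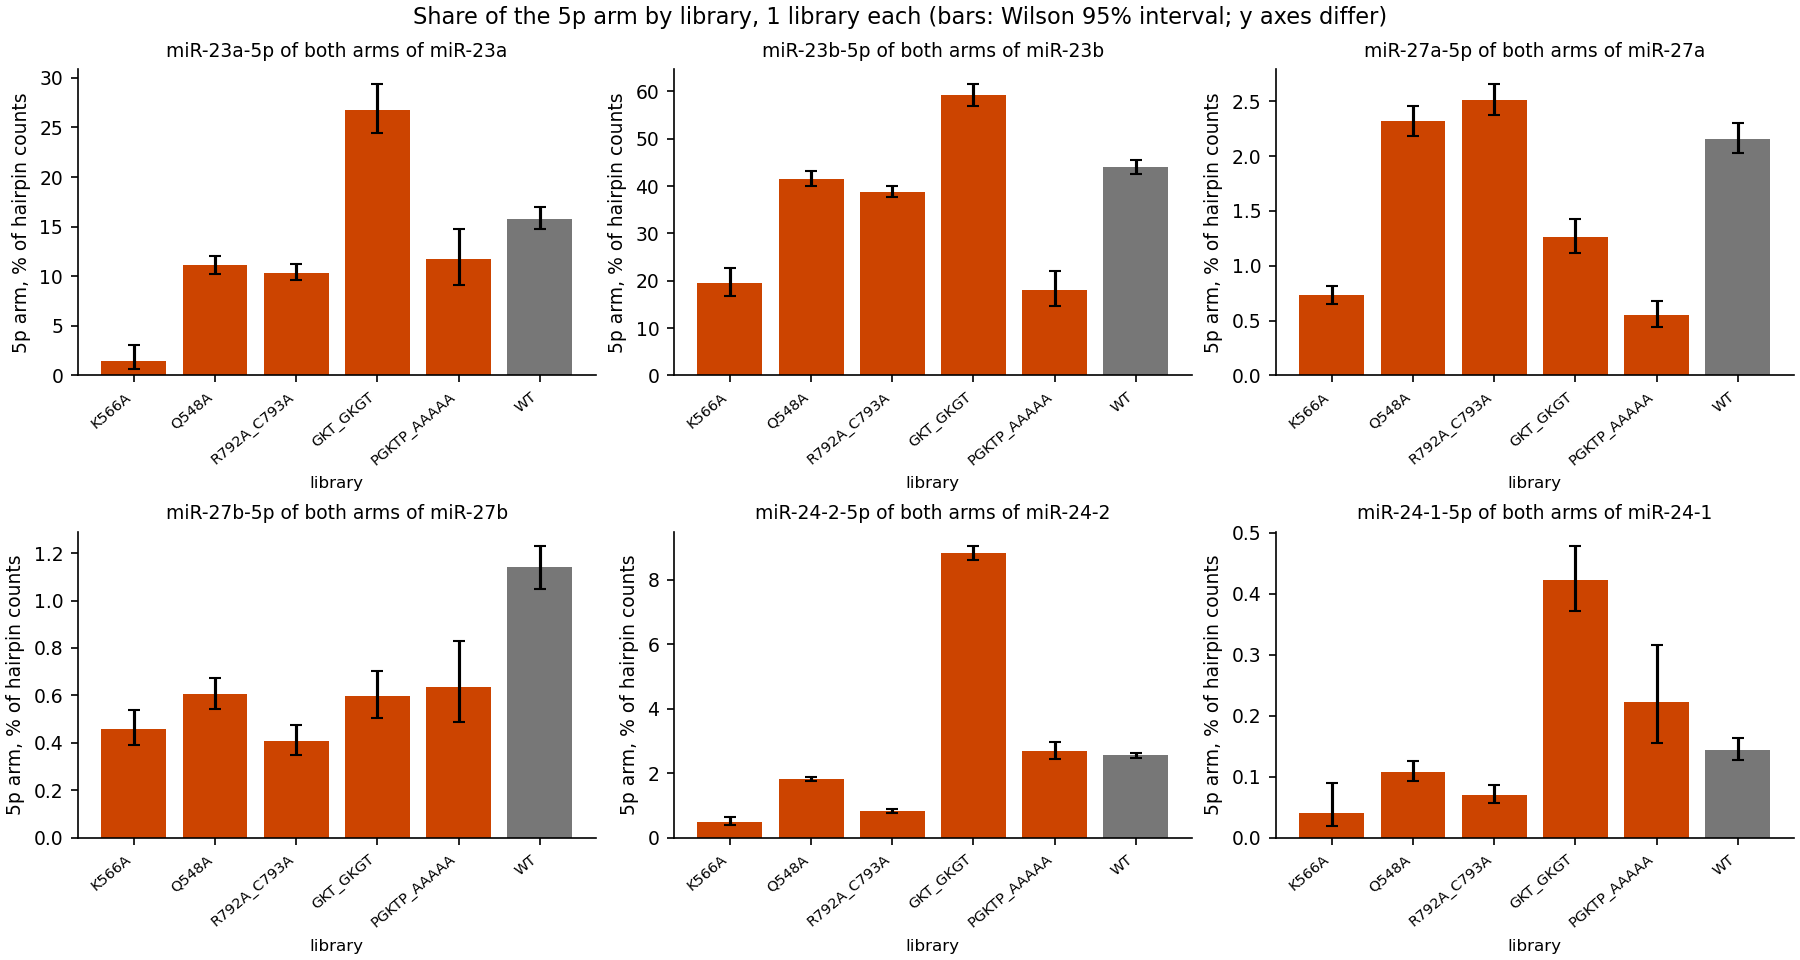
Share of the 5p arm in both arms of each of the 6 hairpins (y axis, %, scales differ) in the 5 mutants (orange) and WT (grey), with Wilson 95% intervals and 1 library per bar. In K566A all 6 shares are below WT. In GKT_GKGT those of miR-23a, miR-23b, miR-24-2 and miR-24-1 are above WT, with miR-23b at 59.3%, and those of miR-27a and miR-27b are below it.

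The loop mutants GKT_GKGT and PGKTP_AAAAA were also set against each other without WT. The A-first miR-23a-3p had 18.0 CPM in GKT_GKGT and 17.6 CPM in PGKTP_AAAAA, a ratio of 1.02 (0.912 to 1.15). miR-23b-3p had 13.2 CPM in GKT_GKGT and 13.3 CPM in PGKTP_AAAAA, a ratio of 0.993 (0.869 to 1.14). Their G-first partners were higher in GKT_GKGT: miR-23a-5p had 6.61 CPM in GKT_GKGT and 2.33 CPM in PGKTP_AAAAA, a ratio of 2.84 (2.14 to 3.82), and miR-23b-5p had 19.3 and 2.93 CPM, a ratio of 6.57 (5.18 to 8.46). Against WT, miR-23a-5p and miR-23b-5p were at 0.948 and 1.08 in GKT_GKGT and at 0.334 and 0.165 in PGKTP_AAAAA. The G-first miR-24-2-5p had a ratio of 7.52 (6.78 to 8.38) and miR-24-1-5p one of 4.12 (2.81 to 6.23). The A-first miR-27a-5p was also higher, with a ratio of 1.57 (1.22 to 2.05), and miR-27b-5p had one of 1.31 (0.946 to 1.83). Of the 7 members compared, miR-24-2-5p and miR-24-3p (2.16-fold) were called higher in GKT_GKGT over PGKTP_AAAAA, where 25.5% of all compared miRNAs were, and 0 were called lower, where 5.93% were. These CPM ratios shift with the scaling. With median-of-ratios scaling, an alternative chosen after seeing the data, the ratio was 0.752 for miR-23a-3p (0.67 to 0.845) and 0.73 for miR-23b-3p (0.638 to 0.835), miR-24-3p (1.58) and miR-23a-5p (2.09) were no longer called, and 16.3% of all compared miRNAs were called higher and 14.8% lower. miR-24-2-5p (5.53), miR-24-1-5p (3.02) and miR-23b-5p (4.83) stayed wholly above 2. In arm shares, which no scaling changes, miR-23a, miR-23b and miR-24-2 were called higher, with log2 odds of 1.46, 2.72 and 1.8, where 15.8% of hairpins were, and 0 lower, where 5.41% were. Not called were miR-27a, whose 5p arm begins with A, at 1.21, miR-24-1, whose 5p arm begins with G, at 0.91, and miR-27b at -0.10.

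The clusters can be compared within a library through paralogous arms. The chromosome 8 copy, miR-23a-3p, made up 42.6% of miR-23-3p in K566A (39.6 to 45.7), 56.9% to 63.7% in the other mutants and 62.1% in WT (60.9 to 63.4). K566A was thus the only Ago2 library with more miR-23b-3p than miR-23a-3p. miR-27a-3p made up 63.9% of miR-27-3p in PGKTP_AAAAA (63.3 to 64.5), 43.9% to 55.0% in the other mutants and 47.9% in WT. The log2 change of the paralog ratio to WT was -1.14 for miR-23a over miR-23b in K566A (-1.35 to -0.94) and 0.95 for miR-27a over miR-27b in PGKTP_AAAAA (0.90 to 0.99), so neither interval was wholly past 2-fold.

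miR-27a-5p made up 88.2% of miR-27-5p in R792A_C793A (86.3 to 89.8), 60.4% to 75.2% in the other mutants and 63.8% in WT, a log2 change of 2.08 in R792A_C793A (1.79 to 2.37). No other paralog change from WT in the 5 mutants had an interval wholly past 2-fold. There miR-27a-5p was at 21.0 CPM in R792A_C793A and 10.5 CPM in WT, and miR-27b-5p at 2.82 CPM in R792A_C793A and 5.96 CPM in WT. miR-24-2-5p made up 92.2% to 95.8% of miR-24-5p in the mutants and 94.8% in WT. The sources used here do not say how reads that match both paralogs were assigned, so the miR-27-3p split, which rests on 1 base near the 3′ end, is uncertain. RefSeq held no miR-23b-3p sequence, so the bases that separate it from miR-23a-3p were not compared. The miR-23-3p split is uncertain for that reason.

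**Figure D5:**
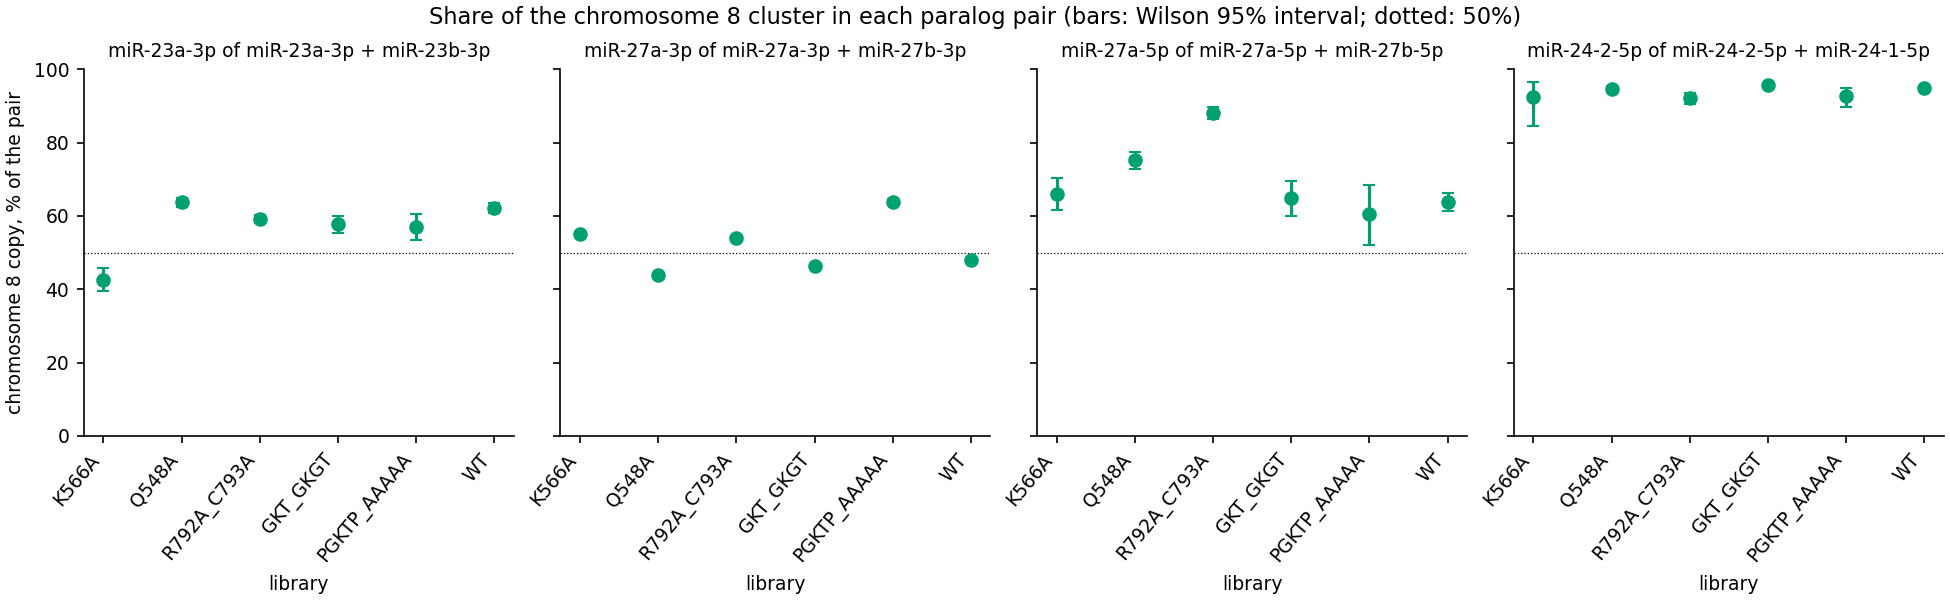
Share of the chromosome 8 copy in each paralog pair (y axis, %) in the 5 mutants and WT (x axis), with Wilson 95% intervals and a dotted line at 50%. The miR-23a-3p share is below 50% in K566A alone, miR-27a-3p is highest in PGKTP_AAAAA at 63.9%, miR-27a-5p is highest in R792A_C793A at 88.2%, and the miR-24-5p share stays between 92.2% and 95.8%.

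RefSeq sequences were matched for 277 of the 337 compared miRNAs, so members could be set beside others with the same first base. In K566A the median log2 ratio to WT was 1.37 for the 122 other U-first miRNAs, 0.89 for the 53 C-first ones, 0.35 for the 70 other A-first ones and -0.67 for the 26 other G-first ones. The U-first members spread across their group, with miR-27a-3p at rank 25 from the top of 125, miR-27b-3p at 41 and miR-24-3p at 97. In GKT_GKGT the medians were 0.86 for C, 0.11 for G, -0.40 for U and -0.61 for A, and miR-24-2-5p was at rank 4 of the 27 G-first miRNAs. In PGKTP_AAAAA they were 0.19 for C, -0.38 for U, -1.37 for A and -1.62 for G. There miR-27a-3p was again at rank 25 of 125 and miR-24-3p at rank 108. In R792A_C793A the medians were 0.47 for C, 0.44 for U, 0.29 for A and -0.11 for G, and miR-23a-3p was at rank 4 of the 72 A-first miRNAs. Outside GKT_GKGT, miR-24-2-5p was low among the 27 G-first miRNAs. Its rank was 22 in K566A, Q548A and R792A_C793A and 18 in PGKTP_AAAAA.

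For the 3 members of at least 100 CPM, likeness was measured as the root mean square difference in log2 ratio to WT over the 5 mutants, against 330 other compared miRNAs. The nearest to miR-27a-3p were miR-881-3p (0.18), miR-26a-5p (0.21) and miR-450a-5p (0.22), where the median difference was 1.19. The nearest to miR-27b-3p were miR-203-3p (0.12), miR-34a-5p (0.18) and miR-470-5p (0.19), where the median was 1.05. The nearest to miR-24-3p were miR-1947-5p (0.15), miR-3074-5p (0.28) and miR-222-3p (0.28), where the median was 1.46. The rows of miR-3074-5p overlap those of miR-24-3p, so these 2 may share reads, which was not tested. Between members, miR-27a-3p and miR-27b-3p differed by 0.50, miR-27a-3p and miR-24-3p by 1.85, and miR-23a-3p and miR-23b-3p by 0.55. The smallest value was 0.49, for miR-23b-3p and miR-27a-5p, which are not paralogs. It is nearly equal to the 0.50 of the miR-27 3p arms, and no interval was computed for these differences. miR-23a-3p differed from miR-27a-5p by 0.66 and from miR-24-3p by 0.68. All these values share the 1 WT library.

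The miR-24 rows overlap rows of miR-3074, which is transcribed from the opposite strand, by 20 bases each. miR-3074-5p is complementary to miR-24-3p over 20 of its 22 bases, shown because reads from both strands fall on the same positions.
miR-24-3p: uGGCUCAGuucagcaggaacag
miR-3074-5p: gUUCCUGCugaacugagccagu
The sources used here do not say whether counting used strand, so reads of the 2 genes cannot be told apart with certainty. miR-3074-5p had 182 CPM in K566A, 271 in R792A_C793A, 257 in Q548A, 236 in GKT_GKGT, 94.9 in PGKTP_AAAAA and 297 in WT. Its share in the sum with miR-24-3p was 15.5% in K566A, 10.8% to 16.8% in the other mutants and 13.3% in WT. miR-3074-2-3p was smaller than miR-24-2-5p in each Ago2 library, with 28.8% of their sum in K566A, 9.64% to 15.2% in the other mutants and 10.5% in WT. miR-3074-1-3p outnumbered miR-24-1-5p in K566A (21 against 6 counts) and R792A_C793A (124 against 88), so the values of miR-24-1-5p are the least certain of the 9.

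The empty control was too shallow to show most members. It held 54 counts of miR-27b-3p, 47 of miR-24-3p and 38 of miR-27a-3p, at most 3 counts of miR-23a-3p, miR-23b-3p, miR-27a-5p and miR-24-2-5p, and 0 of miR-27b-5p and miR-24-1-5p, for which the limit of 3 counts equals 89.7 CPM. In WT over empty, 0 of the 7 members compared were called higher, where 0.593% of all compared miRNAs were, and 1 was called lower (miR-27b-3p), where 2.08% were. miR-27b-3p was at 518 CPM in WT and 1614 CPM in the empty library, a ratio of 0.321 (0.246 to 0.427). miR-27a-3p was at 476 CPM in WT and 1136 CPM in the empty library, a ratio of 0.419 (0.305 to 0.592). miR-24-3p was at 1936 CPM in WT and 1405 CPM in the empty library, a ratio of 1.38 (1.04 to 1.88). In counts, the WT library held 49140 of miR-27b-3p and 183622 of miR-24-3p.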

How the data were processed

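Ago2-bound small RNA was measured in 7 libraries, 1 per group. The deposited table gives raw counts, not normalized, for 1078 mature miRNA rows, and the authors' notes name CASAVA 1.8.2, TopHat2 2.0.9 and mm9, per the submitters' processing notes. The counting program, annotation release, strand use and handling of multiply matching reads are not given in the sources used. Of 64 names at several loci, 55 had counts equal within 1% or 3 counts, so each name was counted once by its highest locus, and 9 names equal to another were merged. CPM used the total of these counts. Ratios carry exact conditional 95% intervals, levels exact Poisson ones and shares Wilson ones. Odds ratios carry exact conditional intervals, or Woolf's where all 4 counts reached 500. Hairpins needed 100 counts over the 6 Ago2 libraries. Intervals were tested on counts simulated with counting error alone, the model they assume, so that test does not cover spread between libraries. Python 3.11.15, numpy 2.4.6, pandas 2.3.3 and scipy 1.17.1 were used. Named were the 9 members, their partner arms, the overlapping miR-3074 rows and the 3 nearest miRNAs of each member of at least 100 CPM. Members and lists were chosen with earlier results of these data known.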

Additional observations from a re-analysis of the deposited data

How the results depend on the processing

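No paired analysis was possible because each group is 1 library and the labels carry no replicate numbers. Arm counts at the single locus left the 30 arm changes with the same sign and call. That setting could hardly differ, as of these arms only miR-24-3p has more than 1 row, with nearly equal counts. The 19 alternatives to the miR-27 over miR-24 change, chosen after seeing the data, kept its sign and call. A pseudocount of 5 kept the sign of the 30 arm changes and the 24 paralog ratios, to which no call is attached. CPM ratios to WT depended on scaling. With median-of-ratios scaling the log2 ratios were, in K566A, -1.25 for miR-23a-3p and -1.81 for miR-24-3p (now called lower), -0.10 for miR-23b-3p and -0.09 for miR-27b-5p (sign turned). In Q548A miR-27a-5p was at -0.09 (sign turned). In R792A_C793A they were 0.92 for miR-23a-3p (no longer called), -1.44 for miR-27b-5p (called lower) and -0.15 for miR-24-3p (sign turned). In GKT_GKGT miR-27b-3p was at 0.02 (sign turned). In PGKTP_AAAAA they were -1.07 for miR-27a-5p, -0.86 for miR-27b-5p and -1.12 for miR-24-2-5p, none still called. Without miR-292-5p in the library size they were, in K566A, -1.52 for miR-23a-3p and -2.08 for miR-24-3p (called lower), -0.37 for miR-23b-3p, -0.21 for miR-27a-5p and -0.36 for miR-27b-5p (sign turned), and 0.96 for miR-27b-3p (no longer called). In R792A_C793A they were 1.05 for miR-23a-3p (no longer called), -1.31 for miR-27b-5p (called lower) and -0.02 for miR-24-3p (sign turned). In GKT_GKGT they were 0.05 for miR-27a-3p and 0.14 for miR-27b-3p (sign turned), and in PGKTP_AAAAA -1.23 for miR-27b-5p (no longer called). Summing loci put miR-24-3p in K566A at -1.04 (called lower). Subtracting the miR-3074 rows put miR-24-1-5p at 1.60 in Q548A and 1.42 in PGKTP_AAAAA (sign turned) and 3.11 in GKT_GKGT (called higher), and gave no value in K566A or R792A_C793A, where its counts reach 0. Members called lower in K566A were 3 with median-of-ratios scaling, 3 without miR-292-5p, 2 with no filter and 2 with loci summed, against 1, and those called higher were 1 without miR-292-5p, against 2. Members called higher in R792A_C793A were 1 under each of these scalings, against 2, those called lower in PGKTP_AAAAA 1 with median-of-ratios scaling, against 3, and those called lower in GKT_GKGT 2 by point estimate, against 0. Of all 337 compared miRNAs, 66 were called lower in K566A, against 106 with median-of-ratios scaling and 116 without miR-292-5p, and 160 higher, against 86 without miR-292-5p. In R792A_C793A 53 were called higher, against 20 and 28 under these scalings, and 23 lower, against 43 and 36. In PGKTP_AAAAA 113 were called lower, against 57 with median-of-ratios scaling, and 24 higher, against 55, and in GKT_GKGT 40 lower, against 24 without miR-292-5p. With no filter, 272 of 798 were called higher and 115 lower in K566A, and 86 and 39 of 814 in R792A_C793A. Calls were 75 and 72 of 807 in GKT_GKGT and 38 and 198 of 797 in PGKTP_AAAAA. In Q548A 31 of 818 were lower, against 15 of 337. For GKT_GKGT over PGKTP_AAAAA, rescaled after seeing the data, 86 were called higher and 20 lower, against 55 and 50 with median-of-ratios scaling, which put miR-24-3p at 0.66 and miR-23a-5p at 1.06 (no longer called) and miR-23a-3p at -0.41 and miR-27b-5p at -0.06 (sign turned). Without miR-292-5p, miR-23b-3p was at 0.04 (sign turned). The causes were not tested. With 1 library per group, differences between cultures or library preparations cannot be told apart from those between Ago2 forms.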
